A study of Mus musculus with 6 samples.

Results

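The genes examined encode the inhibitory synapse: receptors for GABA and glycine, the proteins that anchor these receptors, and the enzymes and transporters that make, load and remove both transmitters. They were taken by name from the table of read counts, and all 25 were found among its 43346 genes, each as 1 row. By role they are 10 subunits of the GABA-A receptor, 2 of the GABA-B receptor, 4 of the glycine receptor, 2 genes of postsynaptic scaffold and adhesion, 3 of GABA synthesis and breakdown and 4 of vesicular and plasma membrane transport. Other genes of these families are not used here.

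RNA came from the cerebellum of mice aged 15 months, 3 with both copies of Tmem106b intact (Tmem106b+/+, called WT) and 3 labelled as homozygous for its loss (Tmem106b-/-, called KO). Each genotype had 1 female, which is replicate 1, and 2 males, and each mouse gave 1 library. Tmem106b encodes a lysosomal membrane protein, the study's title names the death of Purkinje cells and motor deficits, and how the allele was made is not given in the sources used here. The deletion is in the whole animal as far as the labels say, with no Cre driver named, and the labels name no strain. The sample titles hold a code that is not explained and could mark a litter or cage. It is shared by WT replicate 1 and KO replicates 1 and 2 and differs in each of the other 3 mice, and its part in the results was not tested.

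Libraries held 25245778 to 31135185 counts. Tmem106b averaged 66.8 ± 3.64 CPM (counts scaled by library size) in KO and 245 ± 19.4 CPM in WT (SD, n = 3 each), lower in every KO mouse than in any WT mouse, so that 27.2% of the WT level was still counted in KO. As a check of the tissue, the granule cell markers summed to 6214 to 6901 CPM in WT and the Purkinje cell markers to 10850 to 11845 CPM. Choroid plexus markers summed to 66.6 CPM in WT replicate 1 and to 1597 to 5026 CPM in the other 5 libraries, so the pieces differed in how much of this neighbouring tissue they held. The library of KO replicate 1 stood apart by base composition, as described further on, and fold changes of members that move by over 1.5 times or change sign without it are given with and without it.

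GABA-A receptors are chloride channels of 5 subunits whose subunit makeup sets where they sit and how they respond to GABA. GABA-B receptors are obligate pairs of Gabbr1 and Gabbr2 products that act through G proteins. Glycine receptors are chloride channels of alpha subunits and the beta subunit Glrb, which binds the scaffold protein gephyrin. In the cerebellum, Purkinje cells, basket and stellate cells of the molecular layer and Golgi cells of the granular layer use GABA, Golgi cells can also release glycine, and granule cells receive Golgi cell input through receptors that hold the alpha 6 subunit.

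The levels of these genes per gene length spanned a 2885-fold range in WT. Gabra6, the alpha 6 subunit gene of granule cells, was highest at 316 ± 13.3 RPKM (CPM per kilobase of gene length), followed by Gad1, which encodes a glutamate decarboxylase that makes GABA, at 119 ± 3.35 RPKM and by Gabbr1 at 105 ± 5.27 RPKM (SD, n = 3 each). Gabrd, the delta subunit gene of extrasynaptic receptors, was at 82.8 ± 5.90 RPKM and Abat, the transaminase that breaks GABA down, at 73.5 ± 3.70 RPKM, and the ranges of this pair overlapped over the 3 WT mice. In all, 16 members had a WT mean above 10 RPKM, and 5 had one below 1 RPKM. These 5 were Glra2 at 0.85 ± 0.13, Gabra5 at 0.46 ± 0.023, Glra1 at 0.23 ± 0.022, Gabrg3 at 0.18 ± 0.039 and Glra3 at 0.11 ± 0.080 RPKM (SD, n = 3 each). Of the 24 pairs of neighbours in this order, 9 had overlapping WT ranges, among them Gad2 with Nlgn2 and Slc6a11 with Slc6a9. Ordered by mean level, all 25 genes took the same rank in KO as in WT.

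**Figure D1:**
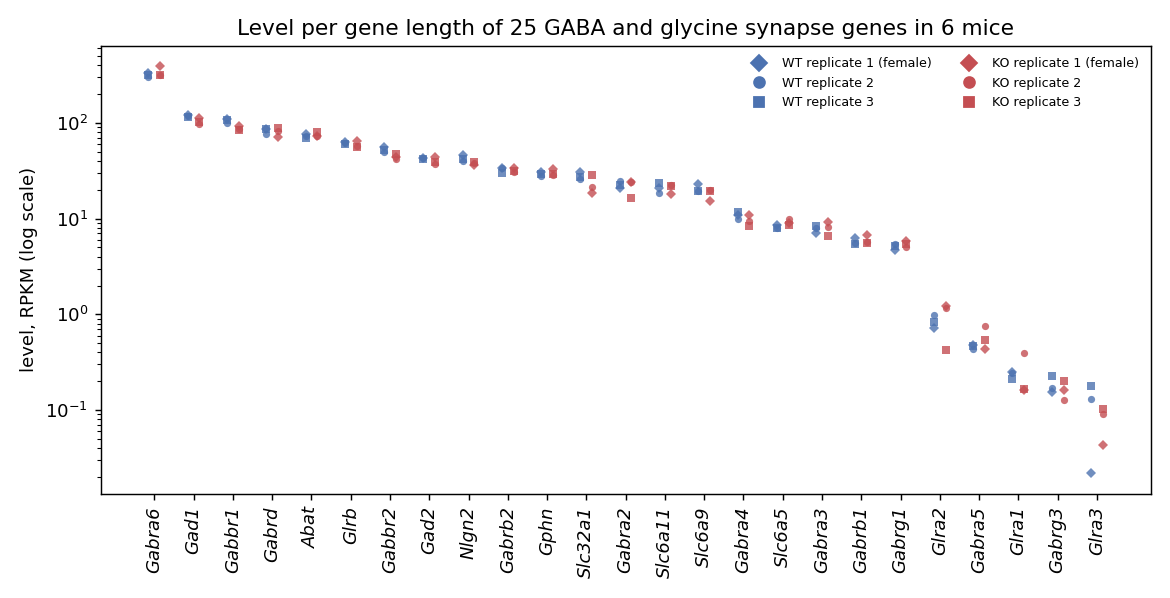
Level of each of the 25 genes in each mouse, as RPKM on a log axis, ordered by the WT mean, with WT in blue and KO in red and a marker shape for each replicate. Gabra6 stands alone at the top at a WT mean of 316 RPKM, and the 5 genes below 1 RPKM sit at the bottom, with all genes in the same order in both genotypes by their means.

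In KO against WT, 0 of the 25 genes passed edgeR's quasi-likelihood test over 16934 genes at a Benjamini-Hochberg adjusted p under 0.05, where 0.283% of all genes passed, 0.136% as higher and 0.148% as lower. DESeq2 (1.43% of all genes called, 0.866% as lower) and limma-voom (0.301%, 0.165% as lower) also called 0. All 25 passed the filter on low counts. At an unadjusted p under 0.05 edgeR gave 3 members lower in KO, Gabbr1, Gabbr2 and Gad1, and 0 higher, against 4.25% of all genes lower and 4.71% higher (8.96% in either direction). At that p DESeq2 gave 4 and limma-voom 3, all lower, and the share of all genes at that p in these 2 tools is not given here. In 4 members, these 3 and Nlgn2, all KO mice lay below all WT mice, a share of 16% where 6.35% of all genes tested did so, and in 0 did they lie above (7.77% of all genes, and 14.1% in either direction). Log2 fold changes (KO over WT) were below 0 in 15 of 25 members, or 60%, and in 49.9% of all genes, with a median of -0.05 for the members and 0.00029 for all genes. The median size of the difference without its sign was 0.11 in both. In 19 members the 95% interval of the fold change lay inside 1.5-fold in either direction. In tissue RNA, fewer cells of a type and less RNA per cell cannot be told apart.

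**Figure D2:**
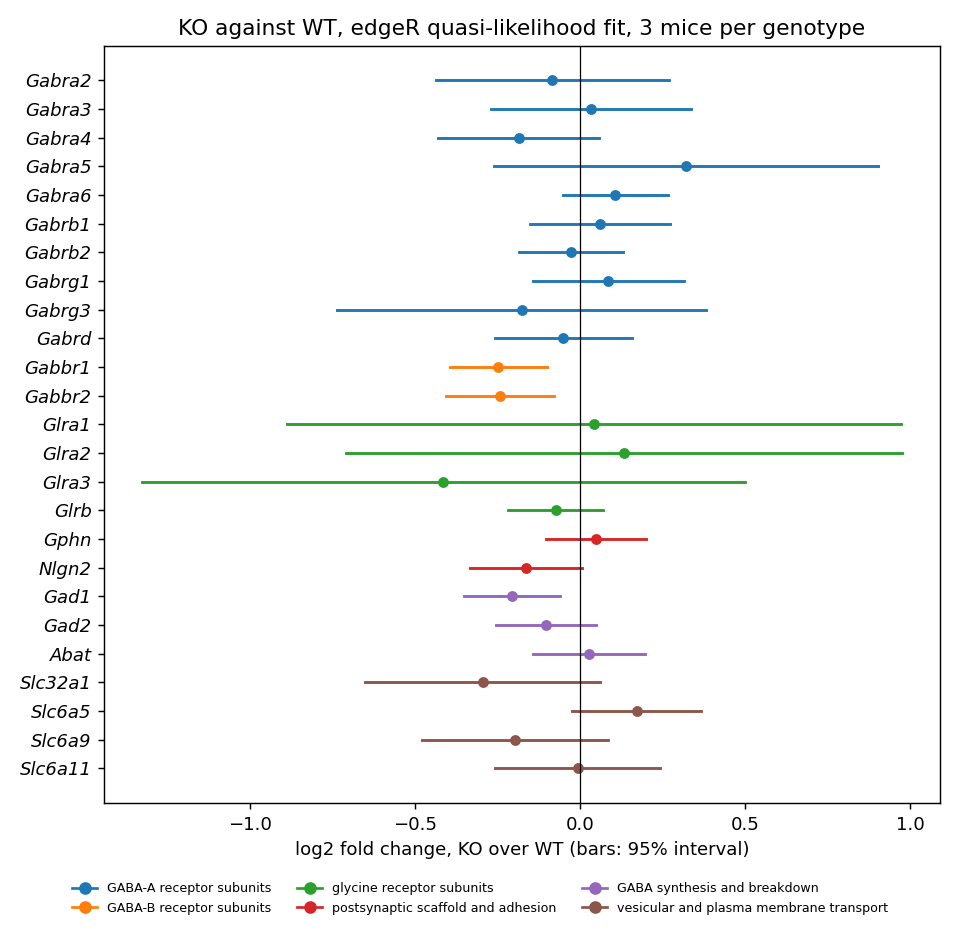
Log2 fold change, KO over WT, of each gene with its 95% interval from the fit over all genes (3 mice per genotype), coloured by role. The intervals of Gabbr1, Gabbr2 and Gad1 lie below 0, that of Nlgn2 ends just above it at 0.0051, and the widest belong to Glra1, Glra2 and Glra3.

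Both subunit genes of the GABA-B receptor were lower in every KO mouse, and by a similar amount on average. Gabbr1 (ENSMUSG00000024462, chromosome 17, 37045966 to 37075067 in mm10), which encodes the subunit that binds GABA, was at 845, 766 and 826 CPM in WT replicates 1 to 3 and at 716, 677 and 660 CPM in KO. The lowest WT mouse stood above the highest KO mouse, and the KO mean was 84.3% of the WT mean. Its log2 fold change was -0.25 (SE 0.064, 95% interval -0.39 to -0.10), with an unadjusted p of 0.00429 and an adjusted p of 0.235 in edgeR. Gabbr2 (ENSMUSG00000039809, chromosome 4, 46662318 to 46991873), the subunit that couples to the G protein, was at 326, 290 and 301 CPM in WT and at 255, 246 and 274 CPM in KO. Here too the groups did not overlap, and the KO mean was 84.5% of the WT mean. Its log2 fold change was -0.24 (SE 0.071, 95% interval -0.40 to -0.078, edgeR unadjusted p = 0.00903, adjusted p = 0.321). The ratio of Gabbr1 to Gabbr2 per length was 2.00 ± 0.060 in WT and 2.00 ± 0.16 in KO (SD, n = 3 each). By mouse it was 1.949, 1.992 and 2.067 in WT and 2.115, 2.073 and 1.815 in KO. KO replicates 1 and 2 thus lay above the WT range and KO replicate 3 below it, so only the means were alike. The auxiliary subunits of this receptor, Kctd8 (-0.10, SE 0.092), Kctd12 (0.12, SE 0.11) and Kctd16 (-0.012, SE 0.48), had edgeR adjusted p-values of 0.816, 0.812 and 0.996. The log2 ratio of KO to WT was -0.12, 0.48 and -0.86 in the females and -0.081, -0.063 and 0.31 in the males, in the same order.

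The enzymes that make GABA differed in how far apart the genotypes lay. Gad1 (ENSMUSG00000070880, chromosome 2, 70553072 to 70602014), which encodes GAD67, the enzyme of most GABA synthesis in cell bodies, was at 933, 899 and 883 CPM in WT and at 848, 739 and 772 CPM in KO. No KO mouse reached the WT range, and the log2 fold change was -0.21 (SE 0.064, 95% interval -0.35 to -0.060, edgeR unadjusted p = 0.0114, adjusted p = 0.353). Gad2 (chromosome 2, 22622205 to 22693874), which encodes GAD65 of axon terminals, was at 255, 255 and 244 CPM in WT and at 256, 217 and 230 CPM in KO. The female KO mouse lay just above the WT range and both males below it, with a log2 fold change of -0.10 (SE 0.066, edgeR adjusted p = 0.714), which was -0.17 without KO replicate 1. The ratio of Gad1 to Gad2 per length, in which library scaling drops out, was 2.82, 2.72 and 2.78 in WT and 2.55, 2.61 and 2.59 in KO. These groups did not overlap, and the two-sided exact permutation p was 0.10, the smallest that 3 against 3 mice allow, and 0.50 adjusted over the 5 ratios computed. Abat averaged 580 ± 36.0 CPM in KO against 569 ± 28.7 CPM in WT (SD of 3 mice each). Its log2 fold change was 0.026 (SE 0.074, edgeR adjusted p = 0.937), or 0.079 without KO replicate 1.

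**Figure D3:**
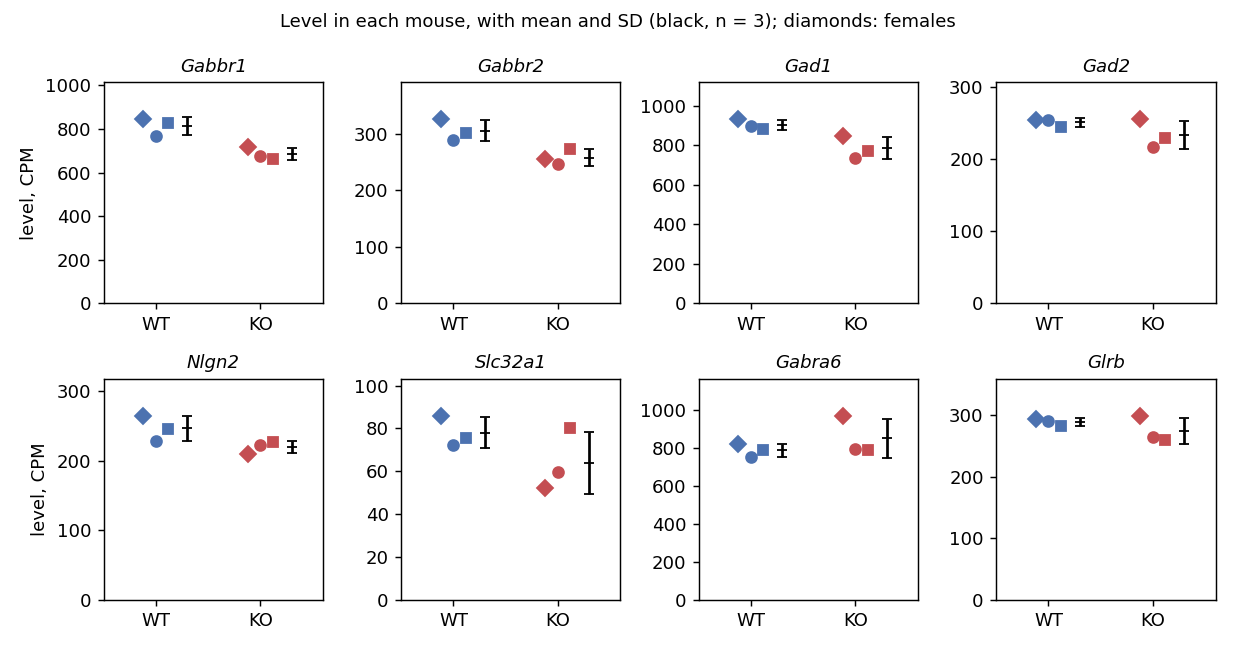
Level in CPM of 8 members in each mouse (WT blue, KO red, diamonds for the females), with the mean and SD of 3 mice in black and every axis starting at 0. In Gabbr1, Gabbr2, Gad1 and Nlgn2 the groups do not overlap, while in Gad2, Slc32a1, Gabra6 and Glrb they do.

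Purkinje cell markers were also lower in KO. All 12 had a fold change below 0, from -0.65 for Itpr1 to -0.19 for Pcp4, with a median log2 fold change of -0.57, and 5 passed over all genes in edgeR, among them Itpr1, Car8, Rgs8 and Ppp1r17. Their summed level was 10850 to 11845 CPM in WT and 7112 to 8131 CPM in KO, so that each KO mouse held 62.5% to 71.4% of the WT mean. On the same scale the summed GABA-B subunits held 82.6% to 86.9%, and the GABA synthesis and breakdown genes 87.8% to 96.4%. Markers of molecular layer interneurons, the other large GABAergic class, summed to 1281 to 1352 CPM in WT and 1143 to 1232 CPM in KO. Of these 6 markers 0 passed in edgeR, and 1 had an unadjusted p under 0.05, Pvalb (-0.23, SE 0.069, edgeR adjusted p = 0.319), which Purkinje cells also express. Pvalb averaged 824 CPM in WT and 700 CPM in KO, which is most of the summed level of this list. The KO means of Kit, Sorcs3, Nxph1, Tfap2b and Ptprk were 99.4% to 111% of their WT means. The median log2 fold change of the 6 was 0.0072. The part of Purkinje cell RNA in the values of Gabbr1, Gabbr2 and Gad1 was not tested.

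**Figure D4:**
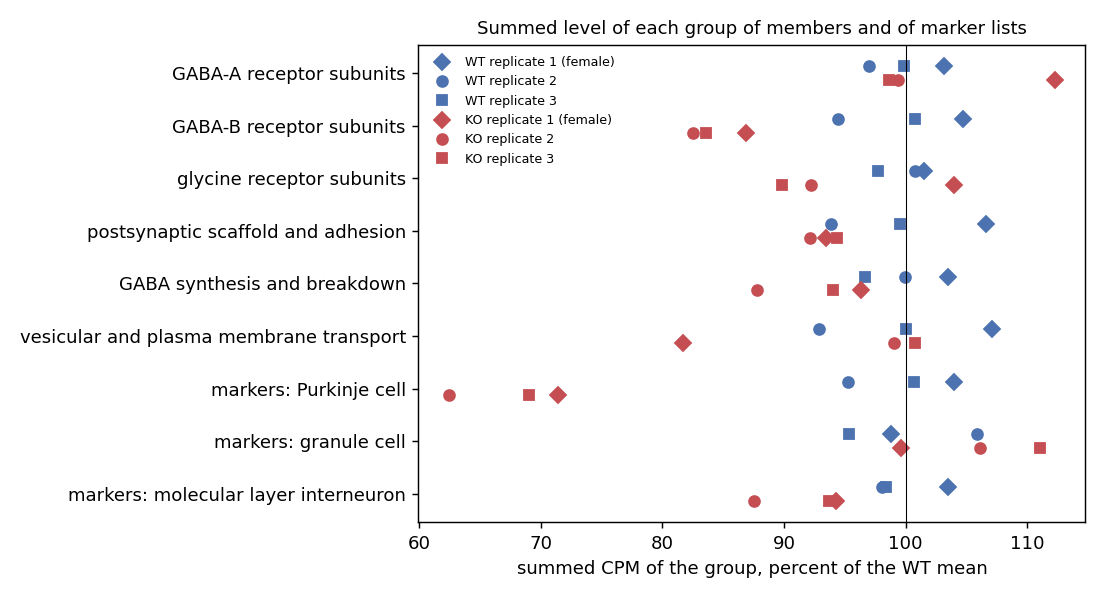
Summed CPM of each role group and of the marker lists of 3 cerebellar neurons in each mouse, as a percent of the WT mean. Purkinje markers in KO sit at 62.5% to 71.4%, GABA-B subunits at 82.6% to 86.9%, and GABA-A subunits at 98.6% to 112%. Most of the molecular layer interneuron sum is Pvalb, which Purkinje cells also express.

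Of the postsynaptic genes, Nlgn2 (ENSMUSG00000051790, chromosome 11, 69823122 to 69837784), which encodes neuroligin 2, the adhesion protein of inhibitory synapses, was at 265, 229 and 245 CPM in WT and at 210, 222 and 227 CPM in KO. The lowest WT mouse lay just above the highest KO mouse, and the log2 fold change was -0.16 (SE 0.074, 95% interval -0.33 to 0.0051, edgeR adjusted p = 0.577). It was -0.087 in the males alone or without KO replicate 1, -0.079 without WT replicate 1, and -0.042 once each library's trends with GC content and length were removed, an alternative added after seeing the data. Gphn, which encodes gephyrin, averaged 103 ± 9.07 CPM in KO against 99.4 ± 4.02 CPM in WT (SD of 3 mice each), with a log2 fold change of 0.048 (SE 0.067, edgeR adjusted p = 0.867) that was 0.00025 without KO replicate 1.

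The promoters of 3 members are printed to set Gabbr1 and Nlgn2, whose genotypes did not overlap, beside Gabra6, the most abundant member, whose genotypes did. They are those of 6 promoters looked up whose window holds no exon base, and the choice followed the values. Each run is the 250 bases before the RefSeq transcription start in GRCm38.p6, the assembly of mm10, read 5′ to 3′ on the gene's strand (plus for Gabbr1, chr17:37045716-37045965, minus for Nlgn2, chr11:69837785-69838034, and minus for Gabra6, chr11:42321073-42321322). Capitals mark the GC box GGGCGG on either strand.
Gabbr1: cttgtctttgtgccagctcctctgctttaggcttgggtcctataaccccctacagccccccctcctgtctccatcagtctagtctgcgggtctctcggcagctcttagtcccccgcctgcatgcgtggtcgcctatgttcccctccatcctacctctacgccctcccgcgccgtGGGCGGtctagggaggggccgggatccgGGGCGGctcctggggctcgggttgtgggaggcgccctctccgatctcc
Nlgn2: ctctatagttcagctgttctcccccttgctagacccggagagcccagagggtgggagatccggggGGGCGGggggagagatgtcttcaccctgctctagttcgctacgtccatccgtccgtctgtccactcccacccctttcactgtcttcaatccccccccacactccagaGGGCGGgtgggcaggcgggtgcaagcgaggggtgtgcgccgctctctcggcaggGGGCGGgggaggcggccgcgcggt
Gabra6: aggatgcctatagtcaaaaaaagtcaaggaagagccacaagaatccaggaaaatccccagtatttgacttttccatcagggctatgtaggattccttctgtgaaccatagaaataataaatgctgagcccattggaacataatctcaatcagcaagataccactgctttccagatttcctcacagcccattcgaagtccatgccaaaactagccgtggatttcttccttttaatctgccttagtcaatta
The Gabbr1 window holds 2 GC boxes, 16 CG dinucleotides and 66% G and C, and the Nlgn2 window 3, 18 and 67.6%. The Gabra6 window holds 0 GC boxes, 2 CG dinucleotides and 40.8% G and C, against medians of 6 and 52.4% over 32851 RefSeq windows. Among the windows not printed, which hold exon bases, Gabbr2 had 2, 37 and 80.8%, and Gad1 had 1, 17 and 58%. The RefSeq start used for Gad1 lies 9057 bases inside the gene as counted, against at most 159 bases for the other promoters looked up. Gad2, whose genotypes overlapped, had 0 GC boxes, 13 CG dinucleotides and 64% G and C. Whether promoter content goes with the difference between genotypes was not tested. Entries were matched by symbol for 22 of 25 members, with 29 windows, of which 48.3% held GGGCGG against 32.7% of all windows. TATAAA was in 17.2% of member windows and 12.4% of all, and CCAAT in 34.5% and 33.8%. The E-box CACGTG (6.02% of all windows), the cyclic AMP response element TGACGTCA (1.55%) and the palindromic EBF motif (0.779%) were in 0 member windows. Both strands were searched, and none of these motifs contains another.

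The GABA-A subunit genes did not separate by genotype in any of the 10 members. Gabra6 (ENSMUSG00000020428, chromosome 11, 42306437 to 42321072) was at 819, 753 and 789 CPM in WT and at 970, 795 and 789 CPM in KO. The female KO mouse was highest of all 6 and the male KO mice lay inside the WT range, with a log2 fold change of 0.11 (SE 0.070, 95% interval -0.052 to 0.27, edgeR adjusted p = 0.719). It was 0.031 without KO replicate 1 and 0.039 without WT replicate 1. Gabrd, whose product joins alpha 6 in extrasynaptic receptors of granule cells, averaged 231 ± 24.3 CPM in KO against 238 ± 17.0 CPM in WT, and Gabrb2, a main beta subunit of the cerebellum, 204 ± 10.4 against 208 ± 15.1 CPM (SD of 3 mice each). Their log2 fold changes were -0.050 (SE 0.091) and -0.027 (SE 0.069), with edgeR adjusted p-values of 0.897 and 0.931. Without KO replicate 1 they were 0.060 and -0.045, so that Gabrd changed sign. The ratio of Gabra6 to Gabrd per length was 3.79, 3.98 and 3.70 in WT and 5.48, 3.91 and 3.61 in KO, so only the female KO mouse left the WT range upwards. The 10 granule cell markers, with Gabra6 left out, lay at a median of 0.057 in log2 fold change, with 0 past the threshold in edgeR and 3 higher at an unadjusted p under 0.05.

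The other alpha, beta and gamma subunit genes were less abundant. Gabra2 averaged 51.5 ± 10.7 CPM in KO against 54.5 ± 4.51 CPM in WT, Gabra3 31.3 ± 5.12 against 30.5 ± 2.66 CPM, and Gabra4 39.4 ± 5.33 against 44.6 ± 3.91 CPM (SD of 3 mice each). In all 3 the lowest of the 6 mice was KO replicate 3, at 39.2, 26.0 and 34.2 CPM. Their log2 fold changes of -0.084 (SE 0.15), 0.033 (SE 0.13) and -0.19 (SE 0.11) were -0.24, -0.15 and -0.28 when KO replicate 1 was left out. Gabrb1, at 17.8 ± 1.31 CPM in WT and 18.6 ± 1.81 in KO, and Gabrg1, a gamma subunit gene, at 24.3 ± 1.61 and 25.8 ± 1.86 CPM (SD of 3 mice each), differed by less than the spread between mice. Without KO replicate 1, Gabrb1 went from 0.060 to 0.032 and Gabrg1 from 0.086 to -0.029 in log2 fold change. Gabra5 and Gabrg3 gave only 29 to 59 and 44 to 81 counts per library. Their log2 fold changes of 0.32 (SE 0.25) and -0.18 (SE 0.24) had 95% intervals from -0.26 to 0.90 and from -0.74 to 0.38. The interval of Gabra5 holds a 1.5-fold rise but not a 1.5-fold fall, and that of Gabrg3 the reverse. These log2 fold changes were 0.53 and -0.29 without KO replicate 1. Over the 10 genes the median log2 fold change was 0.0033, with edgeR adjusted p-values of 0.685 to 0.961.

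Among glycine receptor genes only the beta subunit was abundant. Glrb (ENSMUSG00000028020, chromosome 3, 80843599 to 80913660) was at 294, 290 and 282 CPM in WT and at 299, 264 and 260 CPM in KO. The male KO mice lay below the WT range and the female KO mouse above it, and the log2 fold change was -0.073 (SE 0.063, edgeR adjusted p = 0.794), or -0.13 without KO replicate 1. The alpha subunit genes Glra1, Glra2 and Glra3 gave 10 to 28, 37 to 108 and 3 to 24 counts per library. Glra2 was at 2.29, 3.10 and 2.60 CPM in WT and at 3.82, 3.71 and 1.34 CPM in KO, so the KO mice lay on both sides of the WT mice. The 95% intervals were -0.89 to 0.97 for Glra1, -0.71 to 0.97 for Glra2 and -1.33 to 0.50 for Glra3. Those of Glra1 and Glra2 hold a 1.5-fold change in either direction, and that of Glra3 holds a 1.5-fold fall but not a 1.5-fold rise. The log2 fold changes of Glra1, Glra2 and Glra3, at 0.044, 0.13 and -0.41, were 0.31, -0.17 and -0.67 without KO replicate 1. Glra1 is mainly expressed in brainstem and spinal cord. The 17 markers of deep nuclei and brainstem summed to 19.2 to 33.8 CPM in WT and 18.1 to 30.4 CPM in KO, with only 4 of them past the filter on low counts. Of these, Slc17a6 gave 15.0 to 25.4 CPM over the 6 mice, and Slc6a2 ran from 0.18 to 9.88 CPM.

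The 4 transporter genes lay in no common direction. Slc32a1 (ENSMUSG00000037771, chromosome 2, 158610767 to 158615748), the vesicular transporter that loads both GABA and glycine, was at 86.0, 72.3 and 75.7 CPM in WT and at 52.1, 59.4 and 80.1 CPM in KO. KO replicates 1 and 2 lay below the WT range and KO replicate 3 inside it. The log2 fold change of -0.30 (SE 0.15, 95% interval -0.65 to 0.061, edgeR adjusted p = 0.651) was -0.094 when KO replicate 1 was left out, -0.085 when WT replicate 1 was, and -0.47 when KO replicate 3 was, and did not pass in any of these. Slc6a5, which encodes the neuronal glycine transporter and marks glycinergic neurons such as Golgi cells, was at 60.3, 56.9 and 55.7 CPM in WT and at 63.7, 70.7 and 60.3 CPM in KO, which are the values of a member picked after they were seen. It had the highest fold change among members above 10 CPM (0.17, SE 0.086, edgeR adjusted p = 0.625), and KO replicate 3 lay just inside the WT range. Of the 3 Golgi cell markers, all below 0, Lgi2 was at -0.048 (SE 0.10), Grm2 at -0.16 (SE 0.21) and Sst, at 0.83 to 2.02 CPM, at -0.72 (SE 0.26), with edgeR adjusted p-values of 0.916, 0.861 and 0.438. Their log2 ratios of KO to WT were -0.15, -0.88 and -0.22 in the females and 0.0031, 0.18 and -0.96 in the males. Only Sst was thus below 0 in the males. The glial glycine transporter gene Slc6a9 averaged 92.8 ± 13.2 CPM in KO against 106 ± 11.3 CPM in WT, and the glial GABA transporter gene Slc6a11 85.0 ± 10.0 against 85.0 ± 10.9 CPM (SD of 3 mice each). Their log2 fold changes were -0.20 (SE 0.12, edgeR adjusted p = 0.709) and -0.0064 (SE 0.11, edgeR adjusted p = 0.990). Slc6a9 was at 0.0037 without KO replicate 1 and 0.011 without WT replicate 1, and Slc6a11 at 0.082 and 0.089.

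The members also varied between mice of a genotype, and in KO replicate 1 this variation went with base composition. This mouse had the lowest level of the 6 in 7 members and the highest in 8. Among the 20 members above 10 CPM in WT its lowest were Slc32a1 and Slc6a9, at -0.58 and -0.44 from the WT mean in log2, whose longest transcripts hold 61.9% and 57.0% G and C. Of the sparse members, Glra3 was at -0.79 with only 35.2% G and C, and Glra1 at -0.45 with 52.7%. Its high members included Gabra6 at 0.30, Gabra3 at 0.25 and Gabrg1 at 0.19, with 39.7%, 43.1% and 35.3% G and C. Over the same 20 members, Spearman's rho of GC content with the deviation was -0.85 in KO replicate 1, -0.40 and 0.23 in KO replicates 2 and 3, and 0.65, -0.65 and -0.17 in WT replicates 1 to 3. Over 10363 genes above 10 CPM the same rho was -0.71 in KO replicate 1 and -0.31 to 0.41 in the other libraries. These are descriptions across genes of 1 library each, and genes are not independent replicates. Without KO replicate 1, 0 members passed in edgeR (0.679% of all genes did), and at an unadjusted p under 0.05 Gabbr1, Gabbr2, Gad1, Gad2 and Gabra4 were lower and Slc6a5 higher. The share of all genes at that unadjusted p is not given for this fit, so these members cannot be set against it. With the GC content and length trends removed, an alternative added after seeing the data, 0 members passed in edgeR (1.87% of all genes did, 1.08% as lower). At an unadjusted p under 0.05, 7 members were then lower, namely Gabbr1, Gabbr2, Gad1, Gad2, Glrb, Gabra4 and Slc32a1, and Slc6a5 was higher, where 5.85% and 7.28% of all genes were. In that fit Gad1 was at -0.23 (SE 0.053, edgeR adjusted p = 0.0595), Gad2 at -0.15 (SE 0.051, 0.216), Gabbr1 at -0.21 (SE 0.058, 0.111) and Gabbr2 at -0.16 (SE 0.054, 0.202).

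**Figure D5:**
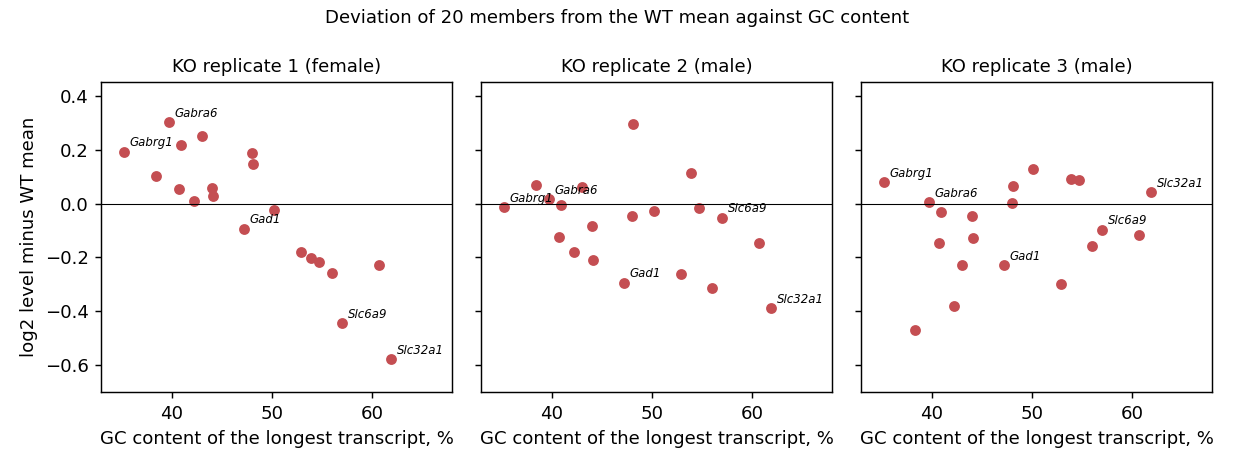
Log2 level minus the WT mean of the 20 members above 10 CPM, against the GC content of the longest transcript in percent, for each KO mouse. In KO replicate 1 the points fall from 0.30 for Gabra6 at 39.7% to -0.58 for Slc32a1 at 61.9%, while in KO replicate 3 they do not fall.

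The difference between genotypes was compared between the female pair and the males by an interaction term, which rests on 1 female per genotype. In edgeR 0 of 25 members passed, as did 0% of all genes, and 5 members, or 20%, had an unadjusted p under 0.05 where 18.8% of all genes did. These were Slc6a9, Slc32a1, Gabrd, Gabra3 and Nlgn2. Slc6a9 had the lowest adjusted p, 0.0844, with a log2 ratio of KO to WT of -0.62 in the females and 0.011 in the males. The female ratio of each of the 5 is that of KO replicate 1 to WT replicate 1, libraries with opposite trends with GC content (rho of -0.85 and 0.65 over the members), whose part in it was not tested. Gabbr1 was at -0.24 in the females and -0.25 in the males, Gabbr2 at -0.36 and -0.18, and Gad1 at -0.14 and -0.24.

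Of 48 other genes of inhibitory transmission, 44 passed the filter, and 0 passed in edgeR over all genes, in DESeq2 or in limma-voom. At an unadjusted p under 0.05, 4 were lower and 2 higher (9.09% lower against 4.25% of all genes). The 4 lower genes were Shmt1, a serine hydroxymethyltransferase that interconverts serine and glycine (-0.56, SE 0.15, edgeR adjusted p = 0.244), Iqsec3, an exchange factor that binds gephyrin (-0.23, SE 0.075, 0.371), Nsf, an ATPase of membrane fusion (-0.17, SE 0.069, 0.509), and Lhfpl4, an auxiliary subunit of GABA-A receptors (-0.16, SE 0.062, 0.509). The 2 higher ones were Amt, of the glycine cleavage system (0.22, SE 0.086, edgeR adjusted p = 0.495), and Maob, a monoamine oxidase of astrocytes (0.28, SE 0.12, 0.550). Maob was at 0.083 and Iqsec3 at -0.16 without KO replicate 1, and the log2 ratio of Maob was 0.67 in the females and 0.091 in the males. The groups did not overlap in these 6, and over the list in 6 lower and 3 higher genes, or 20.5% of the 44, where 14.1% of all genes did so. Iqsec3 was at 133, 130 and 130 CPM in WT and at 101, 121 and 114 CPM in KO, and Lhfpl4 at 148, 141 and 150 CPM in WT and at 132, 131 and 131 CPM in KO. The chloride transporter genes Slc12a5 and Slc12a2, whose balance sets the direction of chloride flow, were at -0.16 (SE 0.11) and 0.027 (SE 0.11), with edgeR adjusted p-values of 0.732 and 0.963. Their log2 ratios of KO to WT were -0.48 and 0.25 in the females and -0.0025 and -0.087 in the males.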

How the data were processed

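Cerebellar RNA of 6 mice was compared, 3 KO with 3 WT. The authors deposited raw read counts per gene with gene coordinates and lengths, and STAR and mm10 are the aligner and build named per the submitters' processing notes. What counted the reads, whether by strand and on which annotation, is not given in the sources used here. Of the 25 members, 2 share exon bases with a gene of over 10% of their counts (Slc6a9 and Gabra5). No member had the counts of another gene, and no pair of replicates was a copy of 1 library (chi-square over degrees of freedom, 7.45 to 31.1).

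The fit used edgeR 4.0.16 in R 4.3.3: filterByExpr (minimum count 10, minimum total 15), TMM scaling, sex and genotype in the model, glmQLFit (robust, legacy version) and a two-sided quasi-likelihood F test over all 16934 genes kept, adjusted by Benjamini-Hochberg with a threshold of 0.05. The SE was taken from the fold change and its F value, and intervals use the fit's degrees of freedom. The spread between mice was a biological coefficient of variation of 11.2%, which limits abundant genes, and counts limit low ones. RPKM are TMM-scaled CPM per kilobase of the file's gene length. GC content, of the longest GENCODE M21 transcript, was known for 99.0% of tested genes. Steps were tested on simulated data. The members and lists were chosen with earlier results of these data known. Values in each mouse were given for members with an unadjusted p under 0.05, with groups that do not overlap or with the highest level of their role, and other genes were singled out beside these, among them Gad2, Glra2, Slc6a5, the Golgi markers, the Kctd and Slc12a genes, Iqsec3 and Lhfpl4, chosen after their values were seen. The alternatives tried other tools (DESeq2 1.42.0 and voom of limma 3.58.1), the newer edgeR version, RLE scaling, no filter or a 1 CPM minimum, a fit without sex, a fit of the 4 males, the leaving out of every library in turn, and a length trend or GC and length trends removed (loess, span 0.5), the last added after seeing the data.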

Additional observations from a re-analysis of the deposited data

How the results depend on the processing

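Under all 16 alternatives 0 of the 25 members and 0 of the other pathway genes passed the threshold, although the number of genes passing over the whole table ran from 1 (without WT replicate 2 or without WT replicate 3) to 313 (GC content and length trends removed), with 232 in DESeq2 and 48 as reported. Gabbr1 kept its sign in all 16, at -0.28 to -0.21, with adjusted p-values of 0.0669 (DESeq2) to 0.856. Gabbr2 ran from -0.28 to -0.16 (adjusted p = 0.133 to 0.996 over edgeR, DESeq2 and limma-voom) and Gad1 from -0.25 to -0.17 (adjusted p = 0.0595 to 0.996 over the same tools). The number of members lower at an unadjusted p under 0.05 was 1 without KO replicate 2, where Gabbr1 was left, and 7 when both the GC and length trends were taken out, against 3 as reported. Of all genes, 5.85% were lower at that p with both trends taken out and 4.25% as reported. For the fit without KO replicate 2 this share is not given. Slc6a11 changed sign in 8 alternatives and Gabra3, Gabrd and Glra2 in 4 each, none of them past the threshold. The 5 highest members per gene length were the same 5 with RLE size factors, and 4 of them were among the 5 highest by CPM not divided by length. No paired analysis was possible because no label pairs the mice. The genotypes share only 1 code in the sample titles, which is not explained, and the labels do not say that replicate numbers pair mice. Sex is in the model.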
